A study of Mus musculus with 5 samples.

Results

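The large olfactory receptor gene clusters of the mouse were described here as 3 windows of the mm9 genome, chr2:85000000-90000000, chr7:109500000-116000000 and chr9:37500000-40000000. Members were chosen by position and by depth alone. They are the CpGs inside the windows whose second count, explained below, was at least 10 in all 5 libraries. The rule gave 4693 CpGs of 1780536 on the autosomes, with 1059 on chromosome 2, 3020 on chromosome 7 and 614 on chromosome 9. In 1 kb tiles holding 3 or more of these CpGs, they formed 450 of 152678 autosomal tiles.

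DNA methylation was measured by reduced representation bisulfite sequencing, in which MspI cuts genomic DNA at CCGG and bisulfite converts unmethylated cytosines. The 5 libraries were 1 from wild-type mice (WT), 2 from mice labelled as carrying a dominant negative histone H3.3 at lysine 36 (K36M) and 2 from mice expressing the H3.3 mutant at lysine 9 (K9M). Per the labels, K36M and K9M mice were induced with 2 mg/ml doxycycline in the drinking water. No doxycycline is stated for WT, so the drug and the mutation cannot be told apart in a comparison with WT. The labels call the cells HSCs (hematopoietic stem cells) and also say that cells were sorted from peripheral blood. Cell identity was not tested here, because no expression was measured. Neither the promoter that drives the mutant histones nor the age of the mice is stated, and whether replicates came from separate animals is not stated either. The p-values below thus reflect the spread of these libraries alone, which may be technical. WT has no replicate.

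Olfactory receptors are G protein-coupled receptors that bind odorants. In mammals their genes (Olfr in the mouse) form one of the largest gene families and lie in long tandem clusters. Each olfactory sensory neuron expresses a single receptor allele, while in other tissues, blood included, the clusters are silent. In some cells silent clusters are packed in heterochromatin that carries methylated lysine 9 of histone H3. No histone mark was measured in the cells used here. Methylation of lysine 36 of the same histone marks transcribed and intergenic euchromatin and recruits DNA methyltransferases. Methionine at either lysine inhibits the enzymes that methylate it.

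Olfactory receptor promoters hold few CpGs. RefSeq (GRCm38.p6) lists 1428 Olfr genes, pseudogenes included, of which 850 lie on chromosomes 2, 7 and 9. Of the 564 Olfr promoters with sequence on these chromosomes, each taken from 250 bases before to 50 after the start, the median number of CGs was 1 and the highest was 8. No CG was present in 34.9% of them, and the MspI site CCGG was present in 3.90%, against 5.43% and 52.8% of 32851 promoters of all genes. The motif CCGG reads the same on both strands, and CG is counted once per pair of strands.

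Differences in CpG content among promoters on these chromosomes are shown by 4 sequences. The promoter of Olfr338 (chromosome 2) has the typical single CG. The promoter of Olfr976 (chromosome 9) has the most of any Olfr promoter counted. Both were drawn from whole chromosomes and were not placed in mm9, so they may lie outside the windows. Both are written with every CG in capitals.

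Olfr338: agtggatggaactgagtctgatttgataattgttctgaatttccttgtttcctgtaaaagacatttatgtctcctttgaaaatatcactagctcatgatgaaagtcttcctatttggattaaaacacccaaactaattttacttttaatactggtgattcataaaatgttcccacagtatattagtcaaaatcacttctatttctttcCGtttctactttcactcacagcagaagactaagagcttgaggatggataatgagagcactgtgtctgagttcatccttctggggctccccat

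Olfr976: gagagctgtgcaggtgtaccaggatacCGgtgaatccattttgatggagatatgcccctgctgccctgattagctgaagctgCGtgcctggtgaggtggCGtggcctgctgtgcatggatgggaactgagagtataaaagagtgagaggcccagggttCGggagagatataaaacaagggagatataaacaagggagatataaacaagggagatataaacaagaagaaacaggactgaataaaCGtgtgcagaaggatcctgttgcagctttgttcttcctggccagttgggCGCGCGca

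Positions of measured CpGs were matched to RefSeq promoters by their spacing, since no mm9 genome was used here. A promoter was accepted where at least 8 measured positions fell on its CGs, every measured position in the stretch did so, and no other place on the chromosome fitted. Inside the windows 18 promoters of 17 genes were matched, and none of them belongs to an Olfr gene. Only 1 of the 564 Olfr promoters holds the 8 CGs that a match needs, so whether Olfr promoters were covered was not tested. Across the windows and 2 Mb on either side, 118 of 118 matched promoters kept the RefSeq gene order. A pair of matched promoters that lie side by side at the edge of an Olfr run on chromosome 7 differed in methylation as described below. They are Rbmxl2 at chr7:114352709-114353008 (mm9, plus strand) and Syt9 at chr7:114514054-114514353 (mm9, plus strand), written with the CpGs measured at the count minimum in capitals.

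Rbmxl2: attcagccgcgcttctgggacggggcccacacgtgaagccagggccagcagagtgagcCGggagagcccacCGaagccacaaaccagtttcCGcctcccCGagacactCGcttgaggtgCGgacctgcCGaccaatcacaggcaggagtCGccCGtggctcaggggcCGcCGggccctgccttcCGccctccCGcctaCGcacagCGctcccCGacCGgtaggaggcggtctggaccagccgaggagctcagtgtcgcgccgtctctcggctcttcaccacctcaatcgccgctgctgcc

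Syt9: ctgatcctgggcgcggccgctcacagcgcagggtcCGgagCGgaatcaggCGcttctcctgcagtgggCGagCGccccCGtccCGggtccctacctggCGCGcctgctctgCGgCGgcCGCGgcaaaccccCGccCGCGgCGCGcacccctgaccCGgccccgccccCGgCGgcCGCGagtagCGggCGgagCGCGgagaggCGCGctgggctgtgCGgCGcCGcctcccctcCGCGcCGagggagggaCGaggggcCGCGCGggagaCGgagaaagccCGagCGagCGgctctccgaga

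Between 3356656 and 3534966 CpGs were listed per library, with deposited totals summing to 111738339 to 174743796. In 4 libraries the deposited total behaved as the sum of a methylated count and a second count that follows reads of either kind, and in K9M replicate 2 it behaved as a plain total. This was also seen inside the windows. At 574 CpGs near full methylation in K9M replicate 2, the other 4 libraries were deposited at medians of 54.1% to 56.4%. Their totals there were 1.83 to 2.36 times that of K9M replicate 2, against 0.783 to 0.947 times at 593 CpGs near 0. Levels are therefore given as the methylated count over the second count, in percent of each library's plateau, the median ratio of its 20% most methylated tiles. This relative level can pass 100%, as it did at 22.4% to 25.7% of window CpGs. The median second count per CpG in the windows was 41 in WT, and 32 and 40 in replicates 1 and 2 of each mutant.

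The windows were sparsely covered and highly methylated. They held 335 measured CpGs per Mb, against 740 in the rest of the autosomes. The density was 212 per Mb on chromosome 2, 465 on chromosome 7 and 246 on chromosome 9. Averaged over the 5 libraries, 69.5% of window CpGs lay above a relative level of 80%, 13.7% between 20% and 80%, and 16.9% below 20%. In the rest of the autosomes the corresponding shares were 42.6%, 8.62% and 48.8%. The share above 80% was 87.5% on chromosome 2, 83.7% on chromosome 9 and 60.2% on chromosome 7, where 24.0% of CpGs lay below 20%.

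**Figure D1:**
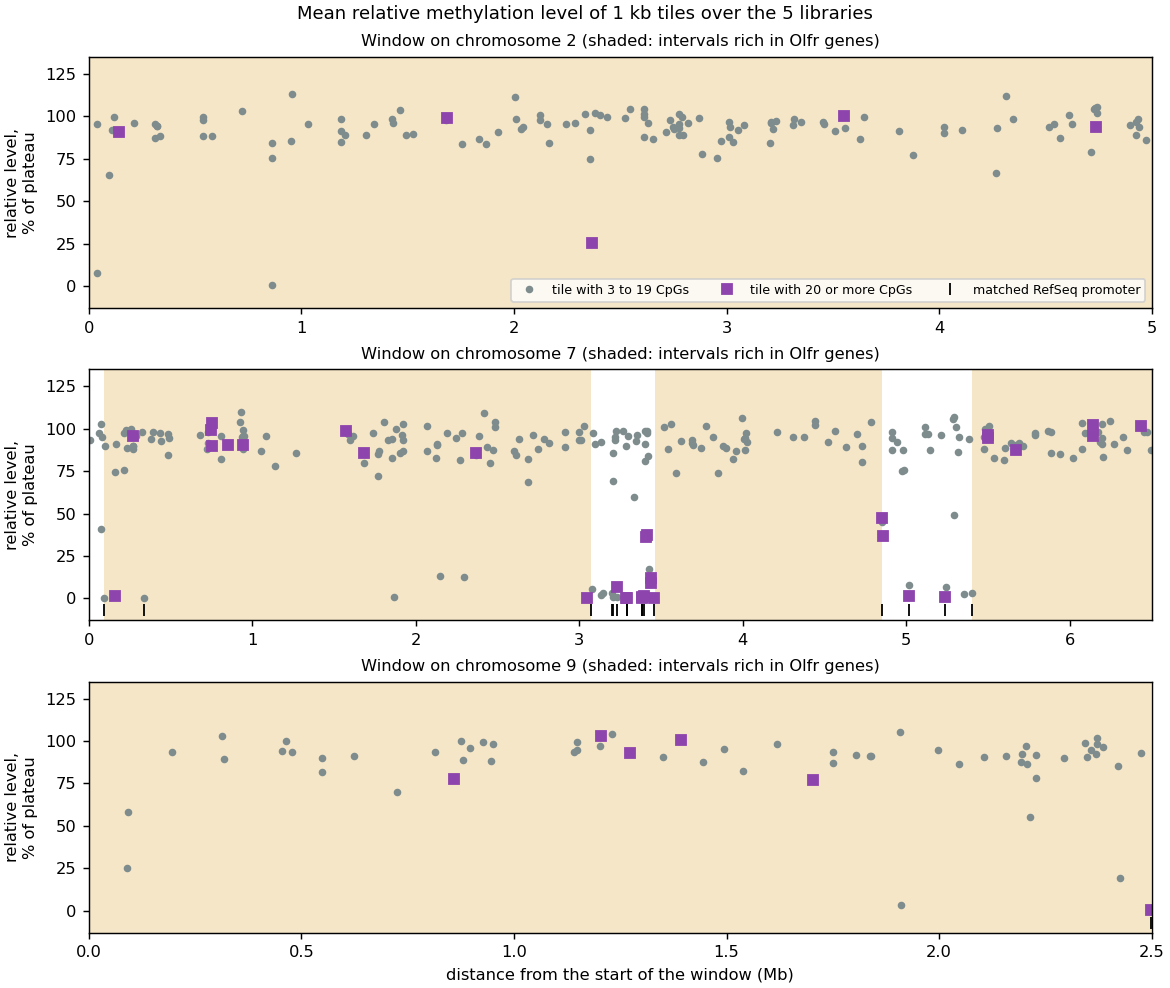
Mean relative methylation level over the 5 libraries (percent of plateau) of each 1 kb tile against the distance in Mb from the start of its window, for the windows on chromosomes 2, 7 and 9. Squares are tiles with 20 or more CpGs, circles tiles with 3 to 19, vertical ticks matched RefSeq promoters, and shading marks intervals in which at least 50% of genes are Olfr genes; most tiles lie near 90% to 100%, and most of the low tiles lie near the ticks on chromosome 7.

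Pooled over all window CpGs, the relative level was 76.0% in WT, 74.0% and 75.0% in K36M replicates 1 and 2, and 73.6% and 74.5% in K9M replicates 1 and 2. The mutant libraries overlapped each other, and all 4 lay below the WT library on this measure. As an unweighted mean over the 450 tiles, the level was 84.5% in WT, with K36M at 83.2% and 83.7% and K9M at 83.6% and 85.2%. On that measure the K9M libraries lay on either side of WT. On chromosome 2 the level was 89.3% in WT, with K36M at 88.9% and 89.1% and K9M at 87.2% and 89.7%. The chromosome 9 values were 87.7% in WT, with K36M at 84.9% and 86.4% and K9M at 85.6% and 87.6%. The chromosome 7 window was lower throughout, at 70.0% in WT, with K36M at 67.7% and 68.7% and K9M at 67.2% and 67.8%. The rest of the autosomes pooled to 41.3% to 42.5%, below each window in 5 of 5 libraries. That difference in level was not tested, since the windows are fixed positions and not replicates.

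The level within the windows differed with gene content, though not in every interval. Matched promoters divide the windows into intervals whose genes can be read from RefSeq gene order, with counts that can reach past a window's edge. Protein-coding genes and pseudogenes were counted, and other gene types were not. Of the 14 intervals of at least 50 kb, 6 were rich in Olfr genes, with 657 Olfr genes among 797. They lay on chromosomes 2, 7 and 9 and covered 13.0 Mb and 3533 measured CpGs. The pooled level in these intervals was 88.9% in WT, with K36M at 87.5% and 88.7% and K9M at 87.1% and 88.5%, and 84.3% of their CpGs lay above 80%. The other 8 intervals, all on chromosome 7, covered 0.987 Mb with 13 genes and no Olfr gene. Their pooled level was 43.3% in WT, with K36M at 40.9% and 41.1% and K9M at 41.5% and 40.3%, close to the rest of the autosomes. Among them WT lay at 90.9% between Stim1 and Rrm1 and at 61.5% between Rbmxl2 and Syt9. The remaining ones ran from 27.5% to 44.2% in WT. As an unweighted mean over tiles, WT lay at 68.8% in the other intervals and at 90.7% in the Olfr-rich ones. The Olfr-rich intervals held 272 measured CpGs per Mb and the other intervals 834, so gene content and CpG density cannot be told apart in these pooled values. The limit of 50% for an Olfr-rich interval and the least length were set after the levels had been seen.

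**Figure D2:**
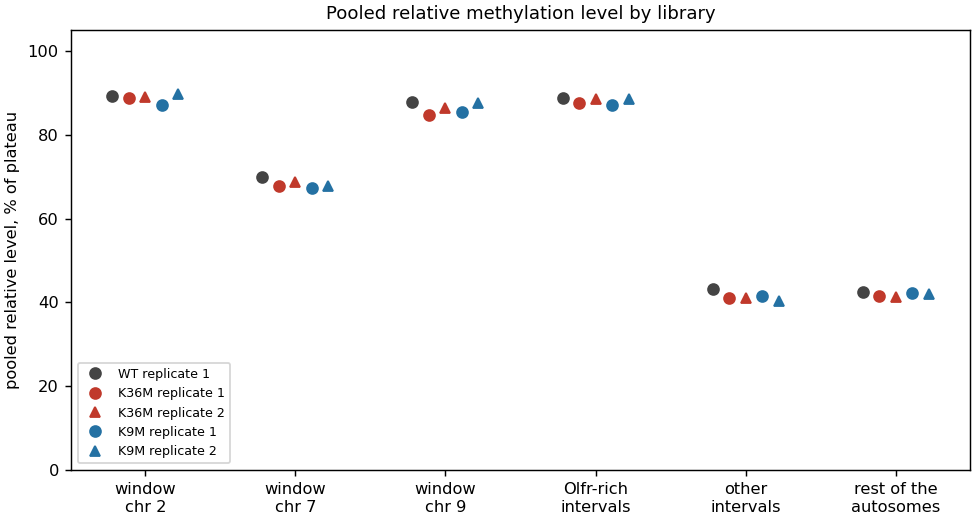
Pooled relative methylation level (percent of plateau) of each library in the window on each chromosome, in the Olfr-rich and the other intervals and in the rest of the autosomes. Each point is 1 library, with WT in grey, K36M in red and K9M in blue; the Olfr-rich intervals lie between 87.1% and 88.9% and the other intervals between 40.3% and 43.3%.

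In 5 of the 6 Olfr-rich intervals the pooled level lay between 81.9% and 95.9% in every library. On chromosome 2 a single interval spanned the whole window, with 293 Olfr genes among 333 between Ssrp1, a histone chaperone gene, and Gm46752. Of these 293, 222 were protein-coding. On chromosome 9 the interval between Tbrg1 and Zfp202 held 126 Olfr genes among 143, with 95 of the 126 protein-coding. On chromosome 7 the interval between Trim68 and Cckbr held 144 Olfr genes among 195, with 6 beta-globin genes (Hbb) and 11 genes of the tripartite motif family (Trim) among the others. Its pooled level was 85.8% in WT, with K36M at 82.9% and 84.3% and K9M at 81.9% and 83.9%. The interval between Mrpl17 and Rbmxl2, with 28 Olfr genes among 41, lay at 92.9% in WT, with K36M at 90.6% and 91.1% and K9M at 88.7% and 94.2%. The interval from Cyb5r2 towards Tub, with 52 among 67, lay between 94.9% and 95.9% in the 5 libraries. The other was the shortest, between Rrm1 and Trim68, with 14 Olfr genes among 18, where the pooled level was 49.3% to 54.7%. It holds the tile chr7:109661001-109662000, whose 49 CpGs lay at 0.71% to 1.34% in the 5 libraries, while the mean over the interval's 15 tiles was 80.7% to 87.5%.

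Most of the matched non-receptor promoters were nearly unmethylated. A match needs 8 measured CGs, so CpG-poor promoters of other genes in the windows were not seen. Of the 17 matched promoters with a measured level, 16 lay below 4% in every library and 15 of them below 2%, the highest of those being 1.17%. These 17 belong to 16 genes, and some overlap each other. The levels at Rrm1 and Taf10 rest on 3 CpGs each. Promoters elsewhere were not set beside them. They include Rrm1, the large subunit of ribonucleotide reductase, Taf10, a subunit of the general transcription factor TFIID, Ilk, the integrin-linked kinase, Mrpl17, a protein of the mitochondrial ribosome, and Smpd1, acid sphingomyelinase. At Rrm1 no methylated count was seen in WT on a second count of 232, which allows a level of up to 1.05%. At Syt9, a synaptotagmin gene, 43 CpGs lay at 0.621% in WT, with K36M at 0.766% and 0.441% and K9M at 0.473% and 0.548%. Cyb5r2, a cytochrome reductase gene, was slightly higher at 2.86% to 3.40%. The promoter of Cckbr, a cholecystokinin receptor gene, was matched but had no CpG at the count minimum.

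Rbmxl2, a testis-expressed retrogene that encodes an RNA-binding protein, was the exception among the matched promoters. The 17 measured CpGs of its promoter lay at 51.5% in WT, with K36M at 40.6% and 52.0% and K9M at 42.7% and 38.7%. Both K9M libraries lay below WT, and the K36M libraries lay on either side of K9M replicate 1. The tile chr7:114353001-114354000, which begins within this promoter, held 129 CpGs, the most of any tile in the windows. It lay at 50.4% in WT, with K36M at 50.3% and 50.5% and K9M at 42.5% and 42.9%, so that both K9M libraries lay below the other 3. K36M lay 7.69 points above K9M there, below the 10 points required for a call, with an adjusted p of 0.0838.

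CpG-dense DNA in the windows was more often methylated than dense DNA elsewhere. Of the 43 window tiles with 20 or more CpGs, 22 lay above 80%, 7 between 20% and 80% and 14 below 20%. In the rest of the autosomes 3201 of 19262 such tiles lay above 80% and 15418 below 20%. All 22 of the methylated dense tiles were in Olfr-rich intervals, which held 27 dense tiles in all, of which 2 lay below 20%. The other intervals held 6 dense tiles, 3 of them below 20% and none above 80%. The remaining dense tiles, with most of the 14 below 20%, were in neither set. Intervals end at matched promoters and a tile had to lie wholly inside one, so tiles at matched promoters were left out of both sets. The mean level of dense window tiles was 58.3% in WT, with K36M at 58.1% and 58.6% and K9M at 56.4% and 56.1%, against 18.5% to 18.8% in dense tiles elsewhere. Tiles with 10 to 19 CpGs averaged 78.0% to 80.4% in the windows and 61.4% to 64.4% elsewhere. Sparse tiles with 3 to 9 CpGs averaged 87.1% to 90.1% in the windows and 78.6% to 84.3% elsewhere.

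**Figure D3:**
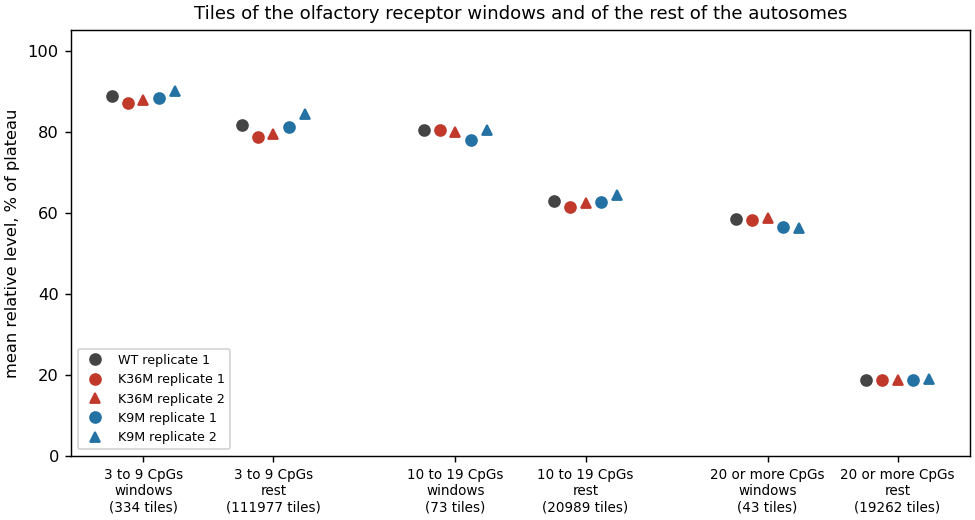
Mean relative methylation level (percent of plateau) of 1 kb tiles by the number of measured CpGs per tile, in the windows and in the rest of the autosomes. Each point is 1 library, with WT in grey, K36M in red and K9M in blue; for tiles with 20 or more CpGs the windows lie at 56.1% to 58.6% and the rest at 18.5% to 18.8%.

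Seen in bins of 1 Mb, the windows were at the upper end of the autosomes without standing outside them. The mean tile level of the 13 whole bins inside the windows had a median of 92.8%, and 12 of the 13 lay above the median of 75.0% over 2394 other bins. The central 90% of the other bins ran from 55.9% to 93.3%, so most window bins fell within it. The lowest window bin, at 57.0%, was the one on chromosome 7 that holds most of the matched promoters. The difference between K36M and WT in window bins had a median of -0.999 points and ran from -2.36 to 2.97, and only 2 bins, both on chromosome 2, lay outside the central 90% of the other bins (-4.18 to 1.76 points). The median of the other bins was -1.54 points. For K9M minus WT the window bins had a median of -0.275 points and ran from -3.64 to 4.56, and 3 of 13 lay outside the central 90% of the other bins (-1.35 to 2.80 points). Of the window bins, 3 exceeded the median of the other bins, 0.911 points.

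The first comparison asks whether mutant H3.3 at lysine 36 went with a change of methylation in the clusters. The pooled level was 76.0% in WT and 74.5% ± 0.731 (SD, n = 2) in K36M, a difference of -1.56 points that was not tested. It shrank to -0.771 points over the Olfr-rich intervals alone, and to -0.281 when CpG levels were averaged without weighting by count. Tile by tile, the pair of K36M libraries was below WT in 173 of 450 tiles (38.4%) and above it in 115 (25.6%). These shares were 38.8% and 25.1% in the rest of the autosomes. No window tile was called lower or higher in K36M (adjusted p under 0.05 from the logistic fit and at least 10 points), while 0.553% of all autosomal tiles were called lower and 0.0183% higher. At an unadjusted p under 0.05, 2 window tiles were lower and 0 higher, against 2.65% and 0.32% of all tiles. limma on relative levels also called 0 in each direction. The unadjusted counts were 9 lower and 3 higher by limma, and their balance turned without K36M replicate 2. The share of all tiles at an unadjusted p was not counted under these settings, so these counts are not read as a trait of the windows.

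Of these 2 tiles, the one with the lower p was chr7:112926001-112927000, between Taf10 and Mrpl17 and outside the Olfr runs. Its 9 CpGs lay at 23.9% in WT, with K36M at 14.4% and 12.5% and K9M at 18.4% and 17.8%. K36M minus WT was -10.5 points with an adjusted p of 0.0778, and the tile was called, at an adjusted p of 0.0414, when only tiles with at least 5 CpGs were tested. In the other tile, chr7:109575001-109576000, 4 CpGs lay at 58.6% in WT, with K36M at 40.2% and 37.1% and K9M at 35.5% and 34.5%. All 4 mutant libraries were below WT, with adjusted p-values of 0.285 for K36M and 0.393 for K9M.

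The second comparison asks the same of the mutant at lysine 9, the residue whose methylation can mark silent receptor clusters. K9M pooled to 74.1% ± 0.629 (SD, n = 2), a difference of -1.97 points from the lone WT library that was not tested, and of -1.07 points over the Olfr-rich intervals. In the unweighted mean over window tiles K9M minus WT was -0.060 points. Both K9M libraries lay below WT in 33.1% of window tiles and above it in 32.0%, against 27.4% and 37.3% in the rest of the autosomes. No window tile was called, with 0.0314% of all tiles called lower and 0.0622% higher, and limma called 0 as well. At an unadjusted p under 0.05, 9 window tiles (2.00%) were lower in K9M and 1 was higher, against 0.601% and 0.81% of all tiles. In 7 of these 9 tiles K9M replicate 1 was the lowest of the 5 libraries, and fewer window tiles were lower at this level without that library. The share of all tiles was not counted in that setting. An example is chr7:111650001-111651000, whose 15 CpGs lay at 22.7% in WT, with K36M at 16.3% and 12.8% and K9M at 0.481% and 13.7%.

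The third comparison sets the mutants, which both received doxycycline, against each other. The pooled levels differed by 0.417 points with K36M higher, an exact two-sided permutation p of 0.667, and the sign turned when either K36M replicate 2 or K9M replicate 1 was left out. With the plateau taken from the 40% most methylated tiles the difference was 1.96 points, at a p of 0.333 by the same exact test. In the unweighted mean over window tiles K36M was the lower, with a difference from K9M of -0.932 points and an exact permutation p of 0.667. With 2 libraries against 2 the smallest p this test can give is 0.333. In the tiles outside the windows K36M minus K9M was -3.02 points, so that window tiles stood higher in K36M only relative to the rest of each library. The mean of window tiles minus that of all other tiles was 14.6 and 14.4 points in K36M, 12.9 and 11.9 in K9M and 13.5 in WT. Both K36M values were above WT and both K9M values below it, and the difference of 2.09 points had a permutation p of 0.333. It kept its sign within each class of CpGs per tile, at 2.06 points for 3 to 9 CpGs, 2.57 for 10 to 19 and 2.18 for 20 or more. In the levels as deposited, in which K9M replicate 2 is on another scale, it was -1.76 points. The order of the mutants around WT did not hold in every class. In tiles over 80%, K9M replicate 1 lay at 0.443 points, above WT at 0.341. In tiles with 20 or more CpGs, K36M replicate 1 lay at 39.5 points, below WT at 39.6.

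**Figure D4:**
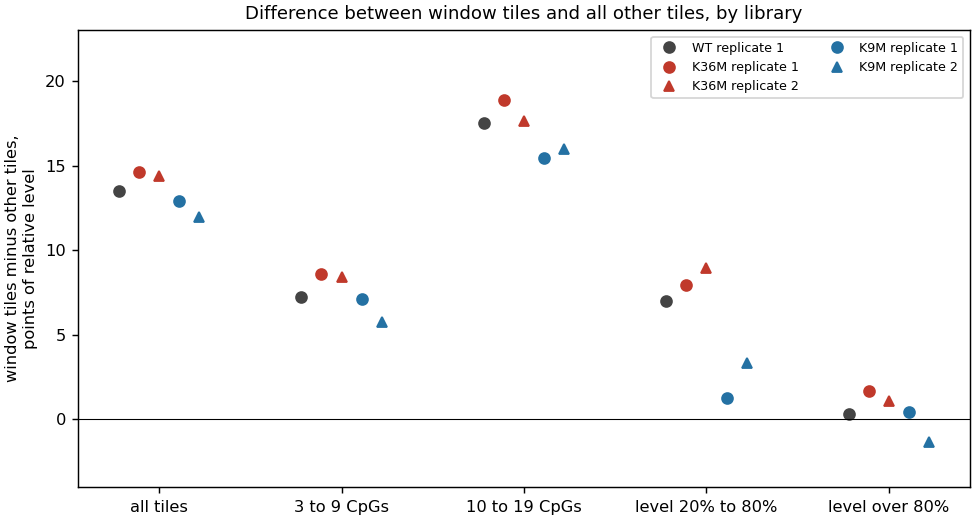
Mean relative level of window tiles minus that of all other autosomal tiles (points of relative level) in each library, for all tiles, for tiles with 3 to 9 and 10 to 19 CpGs, and for tiles at 20% to 80% and over 80%. Each point is 1 library; in the first group the K36M libraries lie at 14.6 and 14.4 points, WT at 13.5, and K9M at 12.9 and 11.9.

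Tiles at intermediate methylation were few in the windows. Only 36 window tiles (8.0%) had a 5-library mean between 20% and 80%, against 13.2% of other tiles, and 376 (83.6%) lay above 80%, against 66.5%. The intermediate window tiles averaged 67.5% in WT, with K36M at 61.7% and 62.9% and K9M at 61.3% and 67.1%. K36M minus WT was thus -5.14 points there, and -6.58 points in the intermediate tiles elsewhere. K36M minus K9M was -1.89 points in the windows and -8.07 points elsewhere. By library, intermediate window tiles exceeded those elsewhere by 7.95 and 8.97 points in K36M, 1.24 and 3.31 in K9M and 7.02 in WT. The K36M and K9M values did not overlap, with a permutation p of 0.333, the smallest possible. The difference of -1.89 points turned sign at a minimum second count of 5 or 20 and without K9M replicate 2.

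In the comparison of K36M with K9M, 1 window tile was called lower in K36M and 1 higher, against 1.33% and 0.0812% of all autosomal tiles. At an unadjusted p under 0.05 there were 3 lower and 4 higher window tiles, or 0.667% and 0.889%, against 3.94% and 0.516% of all tiles. By limma they were 9 lower and 4 higher, while without K36M replicate 2 or K9M replicate 2 the higher tiles outnumbered the lower by more. The share of all tiles was not counted under these settings, so these shifts are not read as a trait of the windows. Replicates spread widely in single tiles. The median difference between replicates of a window tile was 6.43 points in K36M and 4.95 in K9M. The median difference between the group means was 4.95 points. A mean of 2 libraries varies less than 1 library, so these values are not on a like footing. Whether the mutants differed beyond replicate spread cannot be read from them.

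The tile called higher, chr2:87366001-87367000 in mm9, stood apart in its surroundings as the only dense tile of the chromosome 2 window below 80%. Its 22 measured CpGs lie within 272 bases, in an interval of Olfr genes. The level was 24.4% in WT, with K36M at 35.2% and 31.6% and K9M at 18.9% and 18.2%. WT lay between the mutants, and the counting intervals of K36M (31.3% to 39.4% and 28.5% to 35.0%, at 95%) did not reach those of K9M (16.6% to 21.5% and 15.8% to 20.9%). K36M was 14.8 points above K9M with an adjusted p of 0.000865. At 17 of the 22 CpGs both K36M libraries lay above both K9M libraries. The intervals and this tally come from the counts that gave the call. CpGs this close can share reads, so neither is separate evidence for it. Against WT the difference was 9.02 points in K36M and -5.78 in K9M, with adjusted p-values of 0.165 and 0.872. The call was kept in each alternative in which the tile was tested, with adjusted p-values of 0.000228 to 0.0329.

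The tile called lower, chr7:112186001-112187000 in mm9, lies in the interval of Olfr, Hbb and Trim genes between Trim68 and Cckbr. Its 5 measured CpGs within 146 bases lay at 56.1% in WT, with K36M at 49.4% and 59.7% and K9M at 86.6% and 92.5%. Both K9M libraries lay above the other 3, which were between 49.4% and 59.7%. K36M minus K9M was -35.0 points with an adjusted p of 0.0327. At 5 of 5 CpGs both K36M libraries lay below both K9M libraries, which describes the same counts and is not separate evidence. WT was below K9M by 33.5 points, with an adjusted p of 0.516. The call was lost when any mutant library was left out, with adjusted p-values of 0.0585 to 0.274, and by limma, at 0.185. The difference itself ran from -29.8 to -40.1 points without 1 mutant library and was -35.0 by limma. Counting intervals were wide in this tile, at 45.4% to 69.1% in WT and 70.4% to 106% in K9M replicate 1.

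**Figure D5:**
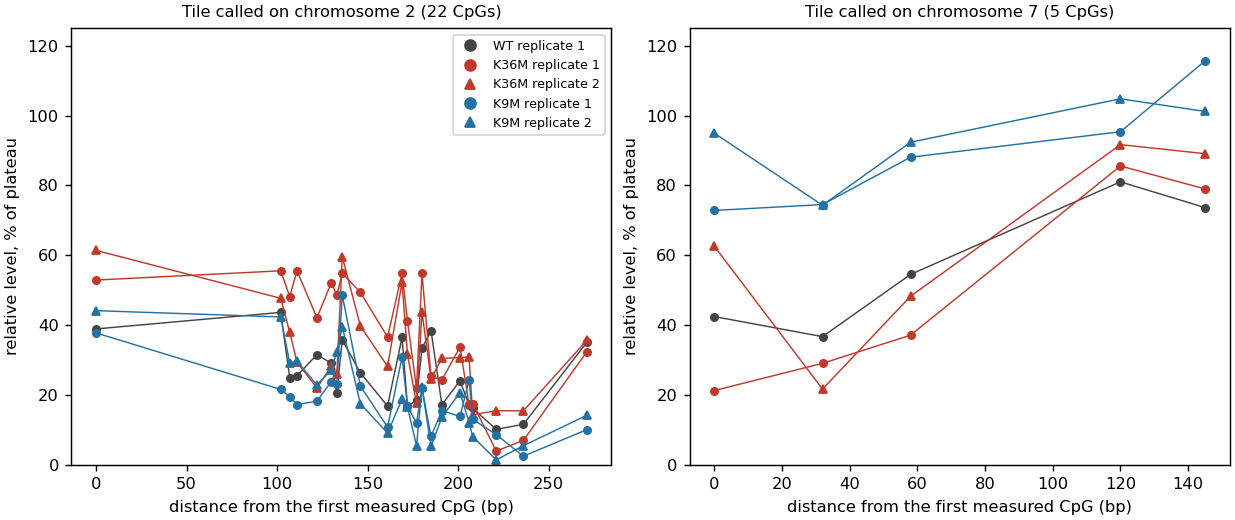
Relative methylation level (percent of plateau) of each measured CpG in the tile called on chromosome 2 (left) and the tile called on chromosome 7 (right) against the distance in bases from the first measured CpG. Points joined by lines are single libraries. At 17 of 22 CpGs on the left both K36M libraries lie above both K9M libraries, and at 5 of 5 on the right they lie below. The tiles were called on these same counts.

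The largest remaining differences between K36M and WT were in sparse tiles and were not called. On chromosome 9 the largest difference between K36M and WT was in chr9:39884001-39885000, where 3 CpGs lay at 107% in WT, with K36M at 87.1% and 78.7% and K9M at 106% and 102%. K36M minus WT was -24.2 points at an unadjusted p of 0.167 and an adjusted p of 1. On chromosome 7 it was in chr7:111952001-111953000, where 6 CpGs lay at 91.0% in WT, with K36M at 71.5% and 69.6% and K9M at 81.3% and 85.2%, at an adjusted p of 0.942. On chromosome 2 it was in chr2:87631001-87632000, where 3 CpGs lay at 81.9% in WT, with K36M at 115.6% and 97.7% and K9M at 96.3% and 89.6%, at an adjusted p of 1. The 3 tiles with the most CpGs on chromosome 2, and the 3 on chromosome 9, lay above 70% in all libraries. Those on chromosome 7 did not. There chr7:114514001-114515000 (103 CpGs) lay at 1.08% to 1.47% and chr7:112548001-112549000 (54 CpGs) at 0.123% to 0.702%. The remaining one is the tile at Rbmxl2 described above. In the densest tile of chromosome 2, chr2:89739001-89740000, 30 CpGs lay at 92.7% in WT, with K36M at 87.5% and 99.5% and K9M at 93.5% and 95.4%. On chromosome 9, 3 tiles shared the highest number, 25 CpGs. The tile chr9:38359001-38360000 was the least methylated of them, at 78.8% in WT, with K36M at 72.8% and 84.4% and K9M at 76.2% and 76.2%. In chr9:38704001-38705000 the level was 108% in WT, with K36M at 115% and 99.9% and K9M at 95.4% and 96.2%, and K36M was 11.9 points above K9M at an adjusted p of 0.907. In chr9:38772001-38773000 the CpGs lay at 90.4% in WT, with K36M at 88.6% and 98.4% and K9M at 94.7% and 93.2%. In each of these 4 tiles on chromosomes 2 and 9 the K36M replicates lay farther apart than the means of K36M and K9M.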

How the data were processed

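Genomic DNA was cut with MspI, bisulfite-converted and amplified for 12 cycles, per the labels' protocols. Tools named in the submitters' processing notes are cutadapt and BSMAP, with the mm9 build. For each CpG the authors deposited a fraction (its methylation level) with a total count. The sources used here do not say how that fraction was derived or whether duplicate reads were removed. The methylated count is the rounded product of fraction and total. It was whole within 0.01 in 100% of CpGs in 4 libraries and in 89.2% in K9M replicate 2. The plateau ratios, in the order WT, K36M replicates 1 and 2 and K9M replicates 1 and 2, were 1.23, 1.22, 1.26, 1.37 and 0.954. A change that scales a whole library is not visible on the relative level, and this scaling was chosen with the values known. Start columns were read as 0-based and coordinates are given from 1.

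Each autosomal tile was fitted with a logistic model of the methylated and second counts with the log plateau as offset, in 1 fit over all 5 libraries with 2 residual degrees of freedom, so WT is assumed to vary like the mutants. The quasi-binomial dispersion was moderated with limma 3.58.1 (squeezeVar, R 4.3.3), held at or above 1, and tested by an F test with Benjamini-Hochberg adjustment over 152678 tiles. CpGs sharing a read are not independent, and intervals cover counting error only. In K9M replicate 2 the second count is the plain total, which already holds the methylated count. The fit and the intervals treat both counts as separate, which overstates that library's counting error at high levels, where most window tiles lie. The effect on the calls was not tested. The fit was tested on simulated data. Earlier simulations with more overdispersion and smaller changes recovered none of the changed tiles, and the settings were then eased to less overdispersion and larger changes, which were mostly recovered. The fit can therefore miss moderate changes, and a count of 0 calls does not show that levels were equal.

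Tiles named are every called tile and some, not all, of those called only in an alternative. Examples are given of the 3 tiles per window with the largest K36M difference from WT or from K9M. Others are among the 3 per window with the most CpGs. The tiles passing only an unadjusted p and the tile chr7:109661001-109662000 were chosen after their values were seen. Genes named are those with matched promoters and the neighbours of Olfr runs. Sequences are from RefSeq (GRCm38.p6), and the windows, lists and rules were chosen with earlier results of these data known. Alternatives changed the count minimum, plateau, window edges, libraries, level scale, summary, test, CpGs per tile and replicate block.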

Additional observations from a re-analysis of the deposited data

Results flagged for a closer look

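In 2 window tiles the effects of K36M and K9M against the shared WT library differed by the test of K36M against K9M. In chr7:112186001-112187000 the difference was -35.0 points (adjusted p 0.0327), with K36M near WT and K9M above it in 2 of 2 libraries. In chr2:87366001-87367000 it was 14.8 points (adjusted p 0.000865), with K36M above WT and K9M below it in 2 of 2 libraries each. Neither tile was called for either mutant against WT alone. The tile on chromosome 7 rests on 5 CpGs and lost its call whenever a mutant library was left out, and the tile on chromosome 2 did not.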

How the results depend on the processing

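The pooled difference between K36M and WT was -0.647 points when the plateau came from the 40% most methylated tiles, -0.466 in levels as deposited, -0.281 as a mean of CpG levels and -0.771 over Olfr-rich intervals only, an alternative chosen after seeing the data. For K9M and WT the same settings gave -2.61, 12.3, -0.954 and -1.07 points. The cause was not tested, except that K9M replicate 2 is on another scale as deposited. The pooled difference between K36M and K9M ran from -0.0998 to 0.934 points when 1 library was left out was 1.96 under the other plateau, with an exact permutation p of 0.333, and was -12.7 as deposited. In tiles at 20% to 80% this difference was 0.0734 at a second count of at least 5 and 0.799 at one of at least 20, and ran from -5.25 to 1.03 with 1 library left out. Window tiles minus other tiles gave -1.76 as deposited and stayed positive otherwise, at 1.61 to 2.57 with 1 library left out.

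The count of tiles lower in K36M than in K9M was 0 under that other plateau, by limma, with a replicate block and with tiles of at least 1 CpG, and ran from 0 to 1 with 1 library left out. The count higher in K36M was 2 at a second count of at least 5 and ran from 1 to 3 with 1 library left out. K9M against WT gave 0 to 1 lower tiles with 1 library left out, and K36M against WT gave 1 lower tile among tiles of at least 5 CpGs. The labels do not say that replicate numbers pair the libraries. Deviations of same-numbered libraries correlated at r = -0.0025 over window tiles and 0.0773 over all tiles, while replicate 1 had the lower pooled level in both mutants and in each window, and the lower median second count (32 against 40). With 2 pairs this leaves pairing unsettled. A replicate block cannot move the pooled difference between K36M and K9M (0.417 points), since the numbers are balanced, and it ended the call of the chromosome 7 tile (adjusted p 0.102). Of the results for summaries, 106 were labelled unchanged, 20 moved and 7 reversed. Unchanged means an equal or close count, a difference from WT within the replicate SD, or a K36M minus K9M difference of the same sign. Counts of 0 that stayed 0 are among these, and the permutation p cannot fall below 0.333. The tally is therefore not a measure of robustness. Depth limits single tiles, most of which hold 3 to 9 CpGs.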
